A study of Mus musculus with 15 samples.

Results

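Imprinted genes are transcribed mainly from the copy inherited from the mother or mainly from the copy inherited from the father. The 10 imprinted genes described here are Igf2, Igf2r, Grb10, Nnat, Peg3, Mest, Plagl1, Dlk1, Sgce and Ndn. They were chosen by name, with earlier results of these data known, and matched by gene symbol. Matching found all 10 among the 21886 genes of the RPKM table (reads scaled to gene length and library depth) and 7 of them among the 14301 genes of the count table. The libraries were made from prostate epithelial cells of C57BL/6 mice, grown as organoids.

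Of 15 samples in the series, 12 are RNA libraries, in 6 groups of 2, and the other 3 (H3K27me3 chromatin immunoprecipitation and input) were not analysed here. In the 4 groups of the RPKM table the mice were 3 months old and all carried PtenPC+/-, the controls included: PtenPC+/-;Setd2PC-/-;Ezh2PC-/- (Setd2 Ezh2 KO), PtenPC+/-;Ezh2PC-/- (Ezh2 KO), PtenPC+/-;Setd2PC-/- (Setd2 KO) and PtenPC+/- (CTRL). Each of those libraries held RNA of 3 biological replicates pooled by equal mass. In the groups of the count table the mice were 2 months old: PtenPC-/-;Ezh2K735R (K735R) and PtenPC-/- (wild-type Ezh2). How many animals stand behind each library of the count table, and which promoter drives each deletion, is not given in the sources used here. In the 4-genotype table p-values measure the spread between pools of RNA, and in the count table that between libraries.

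An imprint is set in the germ line, usually as DNA methylation of CpG-rich control regions, and kept through cell division by a DNA methyltransferase and by zinc-finger proteins that recognise the methylated copy. Polycomb repressive complex 2, whose catalytic subunit is Ezh2, places H3K27me3 and takes part in silencing at some imprinted domains, while Setd2 places H3K36me3 over transcribed genes. Many imprinted genes act on fetal growth: Igf2 is a growth factor, Igf2r clears it, and Grb10 restrains insulin and IGF receptor signalling. RNA levels do not tell which parental copy was transcribed, so imprinting itself was not measured.

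Grb10 and Nnat are the members called among genes that averaged 1 RPKM or more, and Plagl1 was called in both comparisons of Ezh2 loss. Dlk1 was the member called in Setd2 Ezh2 KO against Ezh2 KO by both tests. The start regions of these 4 members are shown for that reason. Each is the RefSeq window (GRCm38.p6) from 250 bases before to 50 bases after a transcription start, 300 bases, 5′ to 3′ on the gene's strand, with every CG dinucleotide, the site of DNA methylation, in capitals. The Grb10 window is chr11:12037371-12037670 (minus strand), the Plagl1 window chr10:13090582-13090881 (plus), the Nnat window chr2:157559828-157560127 (plus, inside the gene's deposited span) and the Dlk1 window chr12:109452573-109452872 (plus).
Grb10: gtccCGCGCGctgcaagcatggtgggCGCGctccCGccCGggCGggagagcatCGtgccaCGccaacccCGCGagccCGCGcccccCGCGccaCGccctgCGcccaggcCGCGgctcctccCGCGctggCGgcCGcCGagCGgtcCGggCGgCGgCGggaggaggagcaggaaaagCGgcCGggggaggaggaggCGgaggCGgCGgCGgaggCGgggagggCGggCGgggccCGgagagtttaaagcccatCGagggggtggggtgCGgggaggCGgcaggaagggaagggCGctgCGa
Plagl1: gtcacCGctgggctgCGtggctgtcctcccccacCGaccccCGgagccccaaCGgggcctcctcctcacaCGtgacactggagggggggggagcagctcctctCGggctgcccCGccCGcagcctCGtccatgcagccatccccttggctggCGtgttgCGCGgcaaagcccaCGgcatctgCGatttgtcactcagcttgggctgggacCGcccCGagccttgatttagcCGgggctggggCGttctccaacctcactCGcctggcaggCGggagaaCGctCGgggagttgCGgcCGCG
Nnat: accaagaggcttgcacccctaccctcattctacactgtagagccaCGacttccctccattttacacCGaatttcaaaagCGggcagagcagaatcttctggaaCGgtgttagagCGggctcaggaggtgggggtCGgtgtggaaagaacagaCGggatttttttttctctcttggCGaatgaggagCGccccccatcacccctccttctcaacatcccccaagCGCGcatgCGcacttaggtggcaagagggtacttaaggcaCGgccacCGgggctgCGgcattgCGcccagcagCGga
Dlk1: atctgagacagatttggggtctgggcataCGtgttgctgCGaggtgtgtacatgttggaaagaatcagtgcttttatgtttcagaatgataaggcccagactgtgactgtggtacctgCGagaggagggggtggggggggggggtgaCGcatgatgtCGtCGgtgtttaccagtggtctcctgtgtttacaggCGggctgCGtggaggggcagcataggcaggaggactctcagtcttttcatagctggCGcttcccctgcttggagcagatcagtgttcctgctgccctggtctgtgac

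The Grb10 window held 45 CG, a number reached by 1.93% of the 32851 RefSeq windows of this length. The Plagl1 window held 26, reached by 16.9%, the Nnat window 17, reached by 31.4%, and the Dlk1 window 9, reached by 45.8%, against a median of 7 CG over all windows. CG reads the same on both strands, so each site was counted once. The second Grb10 start had 9 CG, also reached by 45.8% of windows, the Igf2r start had 34 (7.73%), and the windows of Igf2, Mest, Peg3 and Ndn held between 2 and 24. A window was found for 9 of the 10 members, Sgce being the other. These counts describe the letters of the reference; methylation was not measured.

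Depth and library facts bear on the low members. The reads on listed genes, recovered from the RPKM values, ranged from 46871774 to 54155164 in the Ezh2-deleted groups and from 29660545 to 34847360 in Setd2 KO and CTRL, and counts totalled 28831228 to 37482322 per library in the other groups. As a check of the labels, Setd2 had 8.99 and 7.54 RPKM in Setd2 Ezh2 KO, 14.6 and 11.6 in Ezh2 KO, 8.75 and 10.3 in Setd2 KO and 17.0 and 16.1 in CTRL, and Ezh2 had 16.6 and 14.2 RPKM in Setd2 Ezh2 KO, 13.8 and 11.6 in Ezh2 KO, 24.2 and 20.7 in Setd2 KO and 19.4 and 20.8 in CTRL. A single value per gene also counts transcripts that lack a deleted part, so the remaining Ezh2 reads do not show how much of the deleted part was left. Libraries numbered 1 and 2 stood apart within the Ezh2-deleted groups. Of 11338 genes, 159 were at least 2-fold higher in RPKM + 1 in library 1 of both Ezh2-deleted groups. In library 2 of both, 1 was so, against 1 and 1 in Setd2 KO and CTRL. Adding 1 makes this threshold stricter for low genes. Depth and this pattern went with Ezh2 genotype, and the part of library handling in the differences between these groups was not tested. Epithelial markers summed to between 5512.9 and 7708.3 RPKM in the 8 libraries, with 4 of 12 higher and 3 lower in Ezh2 KO against CTRL (4 and 6 after quantile normalization). With 56.6% of all genes called there, these counts describe those genes alone. The prostate-defining Pbsn was at 0 in Setd2 KO and CTRL, so it could be tested only through a rise.

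The question of the 4-genotype table is how loss of the H3K27 methyltransferase Ezh2, of the H3K36 methyltransferase Setd2, or of both changed these genes. By edgeR, 6 of the 10 imprinted genes were called in Ezh2 KO against CTRL, where 51.2% of all genes were. In Setd2 Ezh2 KO against Setd2 KO, 8 of the 10 were called, beside 49.5% of all genes. A share of 6 in 10 is near that of all genes. Grb10, Sgce and Plagl1 rose and Nnat fell whether or not Setd2 was present, Igf2 rose from a few reads, and Igf2r did not pass the test. Deletion of Setd2 alone left no member past the test. Dlk1 rose in Setd2 Ezh2 KO against both single deletions. Bulk RNA cannot tell fewer cells of a type from less RNA per cell.

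**Figure D1:**
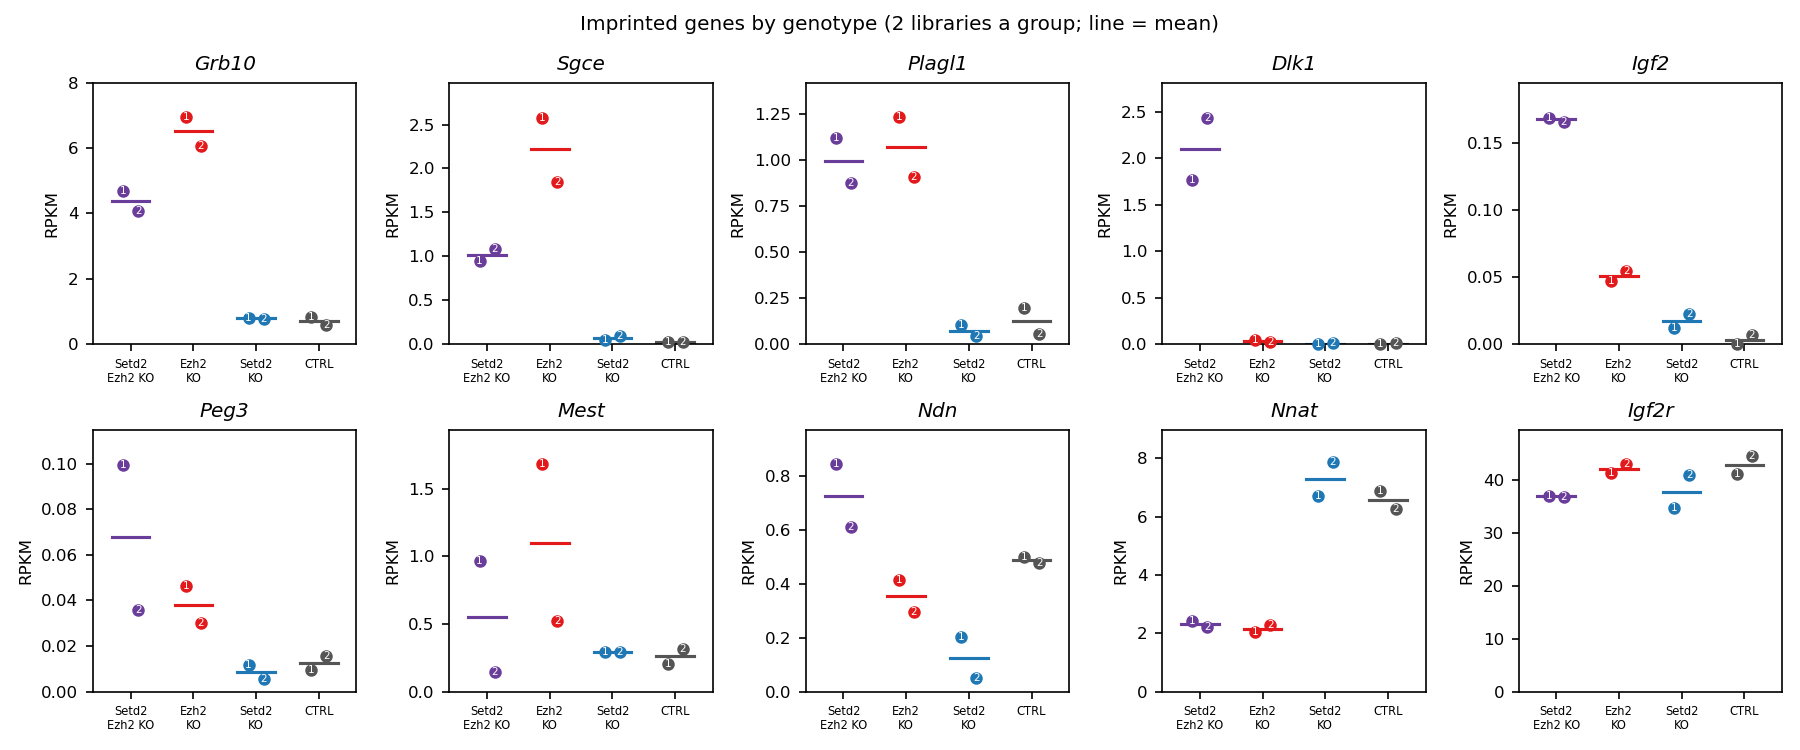
RPKM of the 10 imprinted genes in each library of the 4 genotypes (points, numbered by library, 2 per group; lines, group means; linear axes from 0). Grb10, Sgce, Plagl1 and Igf2 are higher in both Ezh2-deleted groups, Nnat is lower there, Dlk1 is at 1.77 and 2.44 in Setd2 Ezh2 KO and at most 0.0448 elsewhere, and Igf2r lies between 34.6 and 44.4 RPKM in all 8 libraries.

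Across the 11338 genes that averaged 1 RPKM or more, limma called 56.6% in Ezh2 KO against CTRL at a Benjamini-Hochberg adjusted p under 0.05. Of these, 4096 were higher and 2320 lower, against 3177 and 3158 after quantile normalization and 3077 and 3103 after median-ratio scaling, both of which moved the median log2 fold change of all genes to 0.01 beside 0.18 without them. Of the 3 members that reached this mean, 2 were called there, Grb10 higher and Nnat lower, with Igf2r the third. Grb10 lay between 0.577 and 0.832 RPKM in the libraries with Ezh2. It reached this mean only through the libraries without Ezh2, so it could enter this fit only through a rise. The same 2 members were called in the same directions in Setd2 Ezh2 KO against Setd2 KO, where 55.0% of genes were called, 4036 higher and 2205 lower (2921 and 3122 after quantile normalization, 2920 and 2990 after median-ratio scaling). The other 7 members averaged under 1 RPKM and are given from the limma fit without that filter (17885 genes, 42.2% and 41.1% called in these comparisons) and from edgeR's quasi-likelihood test on the recovered reads (14637 genes, 51.2% and 49.5% called). With no filter 5 and 7 of the 10 members were called in the 2 comparisons, and with edgeR 6 and 8. Igf2, Dlk1, Peg3 and Sgce had at most 8 reads in any library with Ezh2, so they could be tested there only through a rise, and nothing is read from the number of members that rose. The median log2 ratio of depth-scaled reads over the 10 members was 1.97 in Ezh2 KO against CTRL and 2.78 in Setd2 Ezh2 KO against Setd2 KO. Groups under 3 reads were set to 3, and over all genes so tested the medians were 0.24 and 0.25. Igf2, Dlk1, Peg3 and Sgce enter the members' medians, so nothing is read from these either. Fold changes below are of log2(RPKM + 1), where adding 1 makes the change of a low gene look smaller.

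Among the growth-signalling members, Grb10, an adaptor that binds the insulin and IGF1 receptors (chromosome 11, 11930499 to 12037422, minus strand, mm10), carried the largest change of the 3 filtered members. Its level was 4.68 and 4.06 RPKM in Setd2 Ezh2 KO, 6.96 and 6.06 in Ezh2 KO, 0.799 and 0.776 in Setd2 KO and 0.832 and 0.577 in CTRL. All 4 libraries without Ezh2 were above all 4 with it. Grb10 rose by a log2 fold change of 2.14 ± 0.134 (SE) in Ezh2 KO against CTRL (limma, adjusted p = 1.3e-06) and of 1.58 ± 0.134 in Setd2 Ezh2 KO against Setd2 KO (adjusted p = 1.05e-05). Against Ezh2 KO, Setd2 Ezh2 KO was lower by a log2 difference of −0.49 ± 0.134 that did not pass (limma adjusted p = 0.0714). This difference passed after quantile normalization (adjusted p = 0.0467), and over its alternatives the adjusted p ran from 0.0268 to 0.411.

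Igf2, the fetal growth factor (chromosome 7, 142650768 to 142666816, minus strand), was close to absent with Ezh2 present and low without it. It had 0.169 and 0.166 RPKM in Setd2 Ezh2 KO (42 and 42 reads), 0.0469 and 0.0548 in Ezh2 KO (13 and 13 reads), 0.0121 and 0.0225 in Setd2 KO (2 and 4 reads) and 0 and 0.00659 in CTRL (0 and 1 read). The order of the 4 genotypes was the same in every library, with no overlap between neighbouring groups. The depth-scaled reads of Ezh2 KO were 15.3 times those of CTRL, with a 95% counting interval of 2.51 to 627 (exact binomial, counting error only, as for all such intervals here). The rise passed in Ezh2 KO against CTRL (limma without a filter, adjusted p = 0.0232; edgeR, 0.0212) and in Setd2 Ezh2 KO against Setd2 KO (adjusted p = 0.000355 and 0.00988). The first call was lost on leaving out either Ezh2 KO library or CTRL replicate 1 in either test, and on leaving out CTRL replicate 2 in limma, with adjusted p up to 0.122, and in limma also after quantile normalization (0.251) and with only these groups in the fit (0.058). In the edgeR test the second was lost without Setd2 KO replicate 1 (adjusted p = 0.064). Setd2 Ezh2 KO held 3.33 times the reads of Ezh2 KO (interval 2.12 to 5.38), a difference limma called without a filter (adjusted p = 0.00627) and edgeR did not (0.24), nor limma with only those groups in the fit (0.0768).

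Igf2r, the cation-independent mannose 6-phosphate receptor that carries IGF2 to lysosomes (chromosome 17, 12682406 to 12769706, minus strand), was the most highly expressed member. It had 37 and 36.8 RPKM in Setd2 Ezh2 KO, 41.2 and 43.0 in Ezh2 KO, 34.6 and 40.8 in Setd2 KO and 41.0 and 44.4 in CTRL, so Setd2 Ezh2 KO lay within the range of Setd2 KO and Ezh2 KO overlapped CTRL, while both groups without Setd2 lay below their counterparts with it. Its log2 fold change was −0.02 ± 0.125 in Ezh2 KO against CTRL (limma, adjusted p = 0.897), −0.02 ± 0.125 in Setd2 Ezh2 KO against Setd2 KO (0.886) and −0.18 in each Setd2 comparison (0.658 in Setd2 KO against CTRL and 0.623 in Setd2 Ezh2 KO against Ezh2 KO). A p that misses the threshold does not show that the levels are alike.

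Among the transcription and membrane proteins, Sgce, epsilon-sarcoglycan of the sarcoglycan complex (chromosome 6, 4674350 to 4747204, minus strand), had the widest ratio in Ezh2 KO. Its level was 0.949 and 1.08 RPKM in Setd2 Ezh2 KO (120 and 140 reads), 2.58 and 1.85 in Ezh2 KO (365 and 224 reads), 0.0476 and 0.0881 in Setd2 KO (4 and 8 reads) and 0.0259 and 0.0258 in CTRL (2 and 2 reads). Libraries without Ezh2 were all above those with it. The depth-scaled reads of Ezh2 KO were 86.6 times those of CTRL (interval 33.6 to 319), and those of Setd2 Ezh2 KO were 14.8 times those of Setd2 KO (8.33 to 29). Sgce was called in both comparisons by both tests (limma without a filter, adjusted p = 0.000138 and 0.00143; edgeR, 6.05e-06 and 7.79e-05) and under every alternative run. Setd2 Ezh2 KO had 0.455 times the reads of Ezh2 KO (0.391 to 0.527), a fall that limma called without a filter (adjusted p = 0.0264) and edgeR did not (0.127); the limma call was lost in 8 of its alternatives, with adjusted p up to 0.146.

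Peg10, a retrotransposon-derived imprinted gene, lies head to head with Sgce on the other strand, with 102 bases between their starts (Peg10: chromosome 6, 4747306 to 4760517, plus strand), and was also higher without Ezh2. It had 1.02 and 0.866 RPKM in Setd2 Ezh2 KO, 0.809 and 0.625 in Ezh2 KO, 0.0409 and 0.164 in Setd2 KO and 0.0643 and 0.00986 in CTRL. Its depth-scaled reads in Ezh2 KO were 19.5 times those of CTRL (interval 11.7 to 35.2), and edgeR called it there (adjusted p = 0.0017) and in Setd2 Ezh2 KO against Setd2 KO (0.00536). The gene was named after its values were seen.

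Plagl1, a zinc-finger transcription factor of the imprinted growth network (chromosome 10, 13090788 to 13131694, plus strand), had 1.12 and 0.872 RPKM in Setd2 Ezh2 KO (292 and 233 reads), 1.23 and 0.904 in Ezh2 KO (359 and 226), 0.104 and 0.0426 in Setd2 KO (18 and 8) and 0.194 and 0.0562 in CTRL (31 and 9). Every library without Ezh2 was above every library with it. Its reads in Ezh2 KO were 8.6 times those of CTRL (6.24 to 12.2), and in Setd2 Ezh2 KO 13.8 times those of Setd2 KO (9.31 to 21.3). Both tests called both rises (limma without a filter, adjusted p = 0.00143 and 0.00141; edgeR, 0.0016 and 0.000609), as did every alternative run. Setd2 Ezh2 KO and Ezh2 KO overlapped.

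Dlk1, an EGF-repeat protein related to Notch ligands (chromosome 12, 109452823 to 109463336, plus strand), had 1.77 and 2.44 RPKM in Setd2 Ezh2 KO (423 and 597 reads), 0.0448 and 0.0262 in Ezh2 KO (12 and 6), 0 and 0.0116 in Setd2 KO (0 and 2) and 0 and 0.00682 in CTRL (0 and 1). Libraries lacking both genes were far above the other 6. The depth-scaled reads of Setd2 Ezh2 KO were 58.4 times those of Ezh2 KO (interval 36.7 to 98.9) and 348 times those of Setd2 KO (96.2 to 2880.9). Both differences passed (limma without a filter, log2 1.58 ± 0.0974, adjusted p = 0.00076, and 1.62 ± 0.0974, adjusted p = 8.38e-05; edgeR, 0.000505 and 1.33e-05), and they held under every alternative run. In Ezh2 KO against CTRL the ratio was 10.6 (1.67 to 441), with limma not calling it (adjusted p = 0.769) and edgeR calling it (0.0288); edgeR lost that call without Ezh2 KO replicate 1 (0.103) or CTRL replicate 1 (0.154). The interaction of both deletions, which asks whether the change with Ezh2 loss differed between backgrounds, was called by limma without a filter (log2 1.57 ± 0.138, adjusted p = 0.00601) and not by edgeR (adjusted p = 0.423). Its close relative Dlk2 had 4.92 and 6.48 RPKM in Setd2 Ezh2 KO, 3.0 and 4.75 in Ezh2 KO, 0.0339 and 0.125 in Setd2 KO and 0.16 and 0.0612 in CTRL, so it was high without Ezh2 in either Setd2 background. Dlk2 reached a mean of 1 RPKM only through the libraries without Ezh2, so the filtered fit could test it only through a rise.

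**Figure D2:**
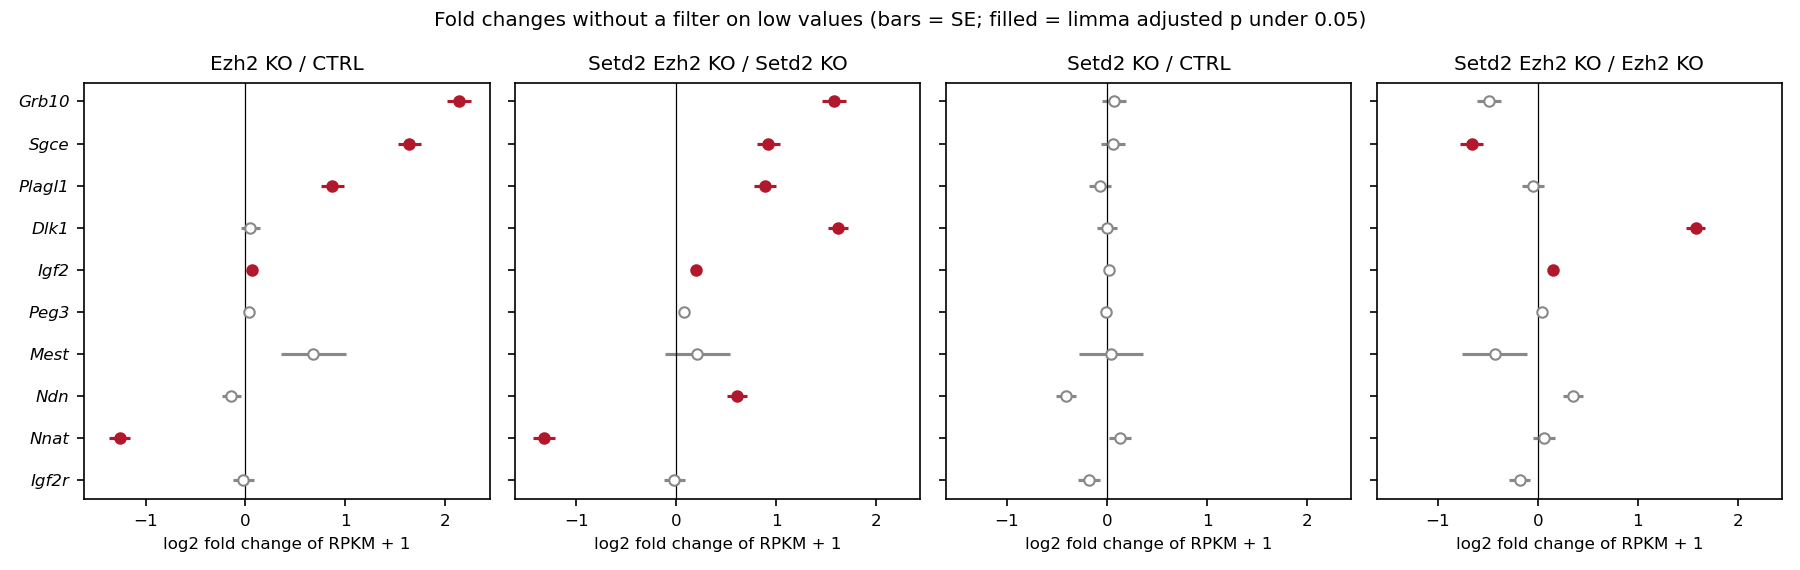
Log2 fold changes of RPKM + 1 for the 10 genes in 4 comparisons, from the limma fit without a filter on low values (points; bars, SE; filled red, adjusted p under 0.05). Grb10, Sgce and Plagl1 are to the right of 0 and Nnat to the left in both comparisons of Ezh2 loss, no point is filled in Setd2 KO against CTRL, and Dlk1 is at 1.58 in Setd2 Ezh2 KO against Ezh2 KO.

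Nnat, neuronatin, a small membrane protein of the endoplasmic reticulum (chromosome 2, 157558362 to 157562525, plus strand), was the only member called lower without Ezh2. It had 2.42 and 2.2 RPKM in Setd2 Ezh2 KO, 2.06 and 2.27 in Ezh2 KO, 6.72 and 7.87 in Setd2 KO and 6.9 and 6.25 in CTRL. Libraries without Ezh2 were all below those with it, by a log2 fold change of −1.26 ± 0.128 in Ezh2 KO against CTRL (limma, adjusted p = 3.43e-05) and −1.32 ± 0.128 in Setd2 Ezh2 KO against Setd2 KO (2.62e-05). Nnat lies within Blcap, a gene on the opposite strand, which fell too, with 17.9 and 20 RPKM in Setd2 Ezh2 KO, 16.9 and 17.1 in Ezh2 KO, 37.3 and 39.0 in Setd2 KO and 32.9 and 36.2 in CTRL (log2 −0.98 ± 0.119 in Ezh2 KO against CTRL, limma adjusted p = 0.000101). The sources do not say whether counting used strand, so reads of the pair cannot be told apart. The same limit holds for Mest, which overlaps Copg2.

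Ndn, necdin, a MAGE-family growth suppressor (chromosome 7, 62348277 to 62349928, plus strand), was lowest in Setd2 KO. It had 0.841 and 0.608 RPKM in Setd2 Ezh2 KO (69 and 51 reads), 0.414 and 0.293 in Ezh2 KO (38 and 23), 0.202 and 0.0509 in Setd2 KO (11 and 3) and 0.499 and 0.477 in CTRL (25 and 24). Setd2 KO lay below the other groups, and Ezh2 KO lay just below CTRL. Ndn rose in Setd2 Ezh2 KO against Setd2 KO (ratio 5.86, interval 3.36 to 11; limma without a filter, adjusted p = 0.00349; edgeR, 0.0136), and the edgeR call was lost without Setd2 KO replicate 2 (0.0652) or Setd2 Ezh2 KO replicate 1 (0.064). In Ezh2 KO against CTRL the ratio was 0.732 (0.495 to 1.09) and neither test called it (adjusted p = 0.311 and 0.396), although quantile normalization gave a lower call (adjusted p = 0.0265). Neither test called Setd2 KO against CTRL (0.197 and 0.274).

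Peg3, a zinc-finger transcription factor (chromosome 7, 6703892 to 6730441, minus strand), stayed under 0.1 RPKM. It had 52 and 19 reads in Setd2 Ezh2 KO (0.0996 and 0.0356 RPKM), 27 and 15 in Ezh2 KO (0.0462 and 0.03), 4 and 2 in Setd2 KO (0.0115 and 0.00533) and 3 and 5 in CTRL (0.00942 and 0.0156). edgeR called it higher in Setd2 Ezh2 KO against Setd2 KO (ratio 8.08, interval 3.54 to 22.8, adjusted p = 0.0201) and limma without a filter did not (0.0686), although it did with a pseudocount of 0.1 (0.0425) and without Setd2 Ezh2 KO replicate 2 (0.0111); the edgeR call was lost without Setd2 Ezh2 KO replicate 1 (0.191) or Setd2 KO replicate 2 (0.111). It was not called in Ezh2 KO against CTRL (adjusted p = 0.384 by limma and 0.179 by edgeR).

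Mest, a member of the alpha/beta-hydrolase fold family (chromosome 6, 30733506 to 30748466, plus strand), differed widely between the libraries of each Ezh2-deleted group. It had 0.966 and 0.143 RPKM in Setd2 Ezh2 KO (139 and 21 reads), 1.68 and 0.523 in Ezh2 KO (270 and 72), 0.293 and 0.29 in Setd2 KO (28 and 30) and 0.205 and 0.318 in CTRL (18 and 28). In both Ezh2-deleted groups library 1 was the high one, as for the 159 genes above. Mest passed neither test in Ezh2 KO against CTRL (limma without a filter, adjusted p = 0.145; edgeR, 0.0867) or in Setd2 Ezh2 KO against Setd2 KO (0.65 and 0.481). Its edgeR log2 fold change in Ezh2 KO against CTRL was 0.82 without Ezh2 KO replicate 1 (adjusted p = 0.475) and 2.47 without Ezh2 KO replicate 2 (0.042), and leaving out either Setd2 Ezh2 KO library also gave a call (0.0207 and 0.016). It was 0.73 in Setd2 Ezh2 KO against Setd2 KO, and −1.18 without Setd2 Ezh2 KO replicate 1.

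**Figure D3:**
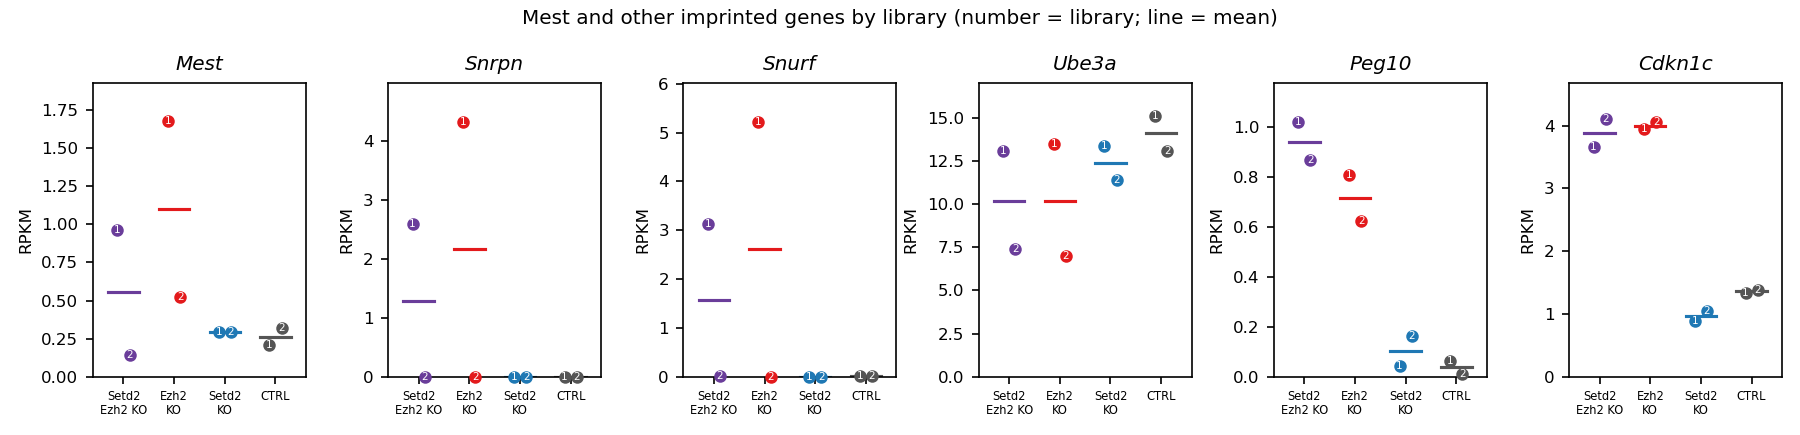
RPKM of Mest and of 5 imprinted genes that are not among the 10, by library (points, numbered; lines, group means; linear axes from 0). In the Ezh2-deleted groups library 1 is above library 2 for Mest, Snrpn, Snurf, Ube3a and Peg10, by a wide margin for Snrpn and Snurf, while Cdkn1c is slightly lower in library 1.

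Deletion of Setd2 was set against CTRL and, without Ezh2, against Ezh2 KO. In Setd2 KO against CTRL limma called 1.07% of genes, and none of the 10 members was called by the filtered fit, without a filter (0.375% of genes) or by edgeR (0.929%). At an unadjusted p under 0.05 the filtered fit had 1313 genes, and of the members Ndn alone reached it, in the fit without a filter and in edgeR. Without Ezh2, limma called 6.49% of filtered genes and none of the 3 members in Setd2 Ezh2 KO against Ezh2 KO, and the fit without a filter called Dlk1, Igf2 and Sgce (5.57% of genes called) and edgeR called Dlk1 alone (5.12%). The interaction called 2.59% of filtered genes and none of the 3 members, and in the fit without a filter (2.01%) it called Dlk1 alone, with none called by edgeR (1.53%). Among its alternatives, the interaction also passed for Ndn with the replicate block (limma adjusted p = 0.031) and for Sgce without Ezh2 KO replicate 2 (0.0355), over ranges of 0.031 to 0.187 and 0.0355 to 0.291. Comparisons that share CTRL or Setd2 Ezh2 KO libraries are not independent of each other.

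In the cells with the K735R form of Ezh2, in which arginine replaces a lysine, no member passed the test. edgeR called 1 of 13203 genes (0.00757%) and 0 of the 6 members tested, and DESeq2 and limma on log2 CPM (counts scaled to library size) also called 0 members. At an unadjusted p under 0.05 edgeR had 1220 genes and 1 member, Ndn. Ndn had 1.74 and 2.04 CPM with K735R, against 3.2 and 3.85 with wild-type Ezh2 (log2 −0.90, edgeR adjusted p = 0.522). Grb10 had 0.837 and 1.04 CPM with K735R (25 and 30 counts), against 1.63 and 2.07 with wild-type Ezh2 (49 and 77 counts; log2 −0.98, adjusted p = 0.581).

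The libraries of the groups did not overlap for Grb10, Ndn, Mest and Plagl1, all lower with K735R, in a table where 22.0% of genes were lower without overlap and 20.3% higher. Mest had 0.67 and 0.623 CPM with K735R, against 1.0 and 1.29 with wild-type Ezh2 (edgeR adjusted p = 0.664), and Plagl1 had 2.51 and 2.53, against 4.8 and 3.23 (0.617). Nnat had 13.6 and 9.04 CPM with K735R, against 7.51 and 11.2 (0.838), and Igf2r 304 and 311, against 299 and 328 (0.96). Peg3 had 0 and 0 counts with K735R, against 2 and 2, and did not pass edgeR's count filter; it was not called without that filter or by DESeq2. Igf2, Dlk1 and Sgce were not found by symbol in the count table, so they could not be tested in this comparison. CPM is not divided by gene length, so these values are not comparable with RPKM.

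**Figure D4:**
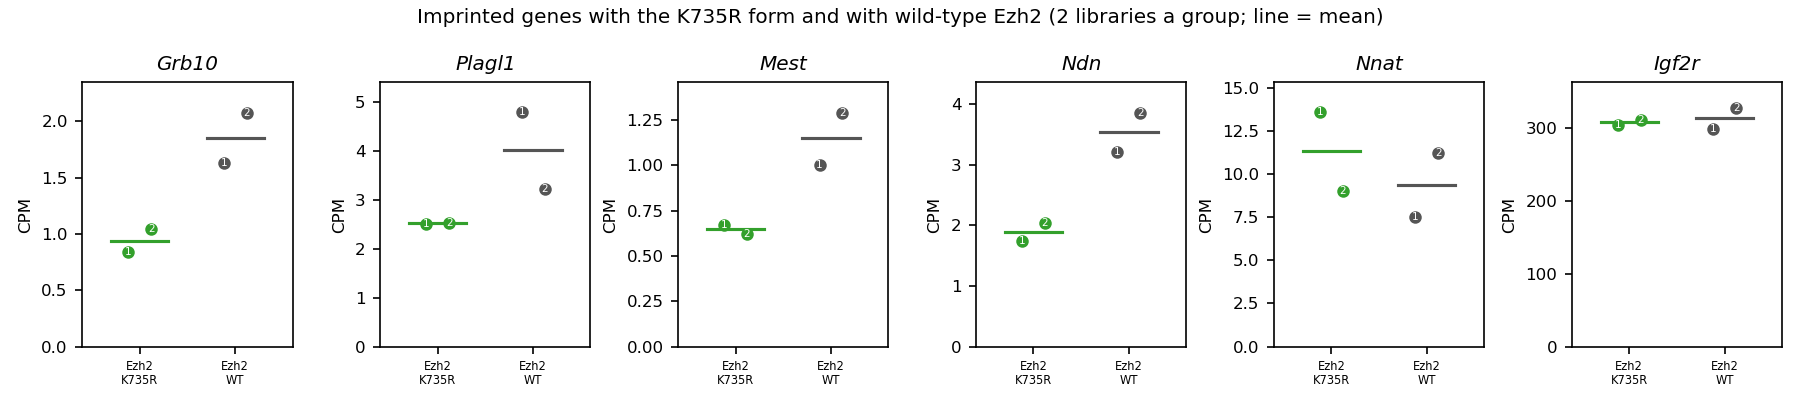
CPM of the 6 tested imprinted genes in each library with the K735R form (green) and with wild-type Ezh2 (grey), numbered by library (lines, group means; linear axes from 0). Grb10, Plagl1, Mest and Ndn are lower in both K735R libraries than in both wild-type libraries, Nnat and Igf2r overlap, and none passed edgeR's test.

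Other imprinted genes moved in both directions in Ezh2 KO against CTRL. Of 19 tested genes on a list of 32 further imprinted genes, 7 rose and 2 fell, with a median log2 fold change of 0.25 beside 0.18 over all genes, and 9 of 19 called was no larger a share than the 56.6% of all genes; after median-ratio scaling the counts were 5 and 3, with a median of 0.09. Dcn, a matrix proteoglycan, rose by 2.92 ± 0.194 (limma adjusted p = 1.92e-06), Tssc4 by 1.41 ± 0.16 (6.79e-05), the CDK inhibitor Cdkn1c by 1.08 ± 0.118 (5.27e-05) and the potassium channel Kcnq1 by 0.92 ± 0.128 (0.000251). Cdkn1c had 3.66 and 4.1 RPKM in Setd2 Ezh2 KO, 3.94 and 4.06 in Ezh2 KO, 0.893 and 1.04 in Setd2 KO and 1.34 and 1.38 in CTRL. Of 10 tested genes on a list of 36 neighbours in the members' imprinted clusters, 2 rose and 2 fell, with a median of −0.06 (2 and 3 after median-ratio scaling, 1 and 3 after quantile normalization): the actin nucleator Cobl, beside Grb10, rose by 1.63 ± 0.136 (limma adjusted p = 9.2e-06), and Ppp1r9a by 0.5 ± 0.119 (0.00576), while Blcap and Pon3 (log2 −0.49 ± 0.157, 0.024) fell. In Setd2 Ezh2 KO against Setd2 KO, 6 of the 19 further imprinted genes rose and 2 fell (median 0.14). Of the 10 neighbours, 3 rose and 3 fell there (median −0.07), beside a median of 0.18 over all genes. With 55.0% of all genes called in that comparison, these counts describe those genes alone. In Setd2 KO against CTRL limma called no gene of either list, with 1 further imprinted gene and 2 neighbours at an unadjusted p under 0.05, while edgeR called Smoc1 lower (log2 −3.69 ± 0.466, adjusted p = 0.00719) and no neighbour.

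Of the 12 listed genes that set or maintain imprints, 10 were tested, and 4 rose and 2 fell in Ezh2 KO against CTRL, with a median of −0.04 (3 and 3 after median-ratio scaling). With 56.6% of all genes called there, the counts called on this list, the neighbours, the IGF axis and the relatives are descriptions of those genes alone. Of the genes named below, Igfbp2, Igf2bp3 and Dlk2 were under 1 RPKM in every library with Ezh2. They passed the filter through the libraries without Ezh2, so they could be tested only through a rise. The maintenance methyltransferase Dnmt1 rose by 1.42 ± 0.123 (limma adjusted p = 1.15e-05), its cofactor Uhrf1 by 1.48 ± 0.142 (2.31e-05) and the insulator protein Ctcf by 0.49 ± 0.12 (0.0066). Zfp57, the zinc-finger protein that binds methylated imprints, had 0.938 and 0.819 RPKM in Setd2 Ezh2 KO, 1.27 and 1.47 in Ezh2 KO, 2.69 and 2.93 in Setd2 KO and 3.21 and 3.51 in CTRL, a log2 fold change of −0.88 ± 0.12 in Ezh2 KO against CTRL (0.000218). Of 12 tested genes of the IGF axis, 5 rose and 5 fell (median −0.08): Igfbp2, which binds IGFs, rose by 3.63 ± 0.287 (1.24e-05), Igfbp5 by 2.01 ± 0.122 (1.04e-06) and the Igf2 mRNA-binding protein gene Igf2bp3 by 1.3 ± 0.12 (1.78e-05), while Igfbp7 fell (log2 −3.63 ± 0.255, 2.75e-06). Of 11 tested relatives and partners of the members, 2 rose and 4 fell (median −0.05), among them Dlk2 (log2 2.11 ± 0.185, 1.26e-05), the Grb10 relative Grb14 (−1.16 ± 0.135, 7.93e-05), the necdin relative Maged2 (−0.82 ± 0.122, 0.000386) and Utrn, a dystrophin relative that joins the sarcoglycan complex (−1.29 ± 0.148, 7.36e-05).

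Markers of other cell types also differed between the genotypes, in no single direction. In Ezh2 KO against CTRL limma called 56.6% of all genes, so the counts called on the marker lists describe those genes alone. Over 12 stromal markers the summed level was 34.0 and 29.4 RPKM in Setd2 Ezh2 KO, 34.6 and 33.2 in Ezh2 KO, 8.16 and 13.6 in Setd2 KO and 12.6 and 9.42 in CTRL, with 4 of the 5 tested higher and Postn lower in Ezh2 KO against CTRL; Lum and Des were at 0 in Setd2 KO and CTRL. Dcn, also one of the further imprinted genes, made up much of the sums in the Ezh2-deleted groups: without it the sums were 8.47 and 9.16 RPKM in Setd2 Ezh2 KO, 15.8 and 20.5 in Ezh2 KO, 7.25 and 12.4 in Setd2 KO and 11.3 and 8.36 in CTRL. The 6 endothelial markers summed to 2.18 and 2.74 RPKM in Setd2 Ezh2 KO, 1.97 and 3.18 in Ezh2 KO, 0.603 and 0.664 in Setd2 KO and 0.562 and 0.546 in CTRL, with Emcn at 0 throughout and the 1 tested higher. The 7 immune markers summed to 13.6 and 14.9 RPKM in Setd2 Ezh2 KO, 13.2 and 14.0 in Ezh2 KO, 33.1 and 39.6 in Setd2 KO and 21.9 and 24.6 in CTRL, with 1 of the 2 tested higher (Lyz2) and 1 lower (Cd68). Without Cd68 the immune sums were 3.06 and 3.32 RPKM in Setd2 Ezh2 KO, 8.94 and 9.56 in Ezh2 KO, 0.0897 and 0.083 in Setd2 KO and 0.0863 and 0.0374 in CTRL, and Ptprc, Lyz2 and Adgre1 were at 0 in Setd2 KO and CTRL. edgeR called 4 of 5 immune markers higher and Cd68 lower in Ezh2 KO against CTRL, where it called 51.2% of all genes. From 0 in Setd2 KO and CTRL, Ptprc, Lyz2 and Adgre1 could be tested only through a rise. The 8 neuroendocrine markers summed to 2.05 and 2.35 RPKM in Setd2 Ezh2 KO, 1.65 and 2.01 in Ezh2 KO, 2.53 and 4.86 in Setd2 KO and 7.1 and 8.99 in CTRL, with 1 of the 2 tested lower. The part of other cell types in the members' changes was not tested.

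The genes whose pattern over the 8 libraries was most like that of Grb10 were Ces1d and Pcyt1a (Pearson r = 0.9977 each) and Glb1l2 (0.9976), on log2(RPKM + 1) among the 11338 genes. Those most like Nnat were Nedd9 (0.9966), Ptpn13 (0.9965) and Irgm1 (0.9962). The 8 points share 4 genotypes, and 1245 genes reached 0.95 with Grb10 and 855 with Nnat, so these values describe a pattern held by many genes.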

How the data were processed

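RNA of 12 libraries was analysed. The authors deposited RPKM values per gene for the 4 genotypes and whole-number read counts per gene for K735R and wild-type Ezh2, a unit taken from the values. Per the submitters' processing notes, the build is mm10 and the tools named are Bowtie, RSEM, BWA and SICER; versions, strand and the treatment of shared reads are not given in these sources. The RPKM values were whole multiples of 1 read: of 13748 genes detected in each of the 8 libraries, 13744 (99.97%) gave whole reads to within 0.01, and 4 genes were left out of the recovered reads. Date numbers stood in place of 27 and 19 symbols of the RPKM and count tables, and 21653 and 14196 Entrez identifiers matched RefSeq.

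Values were transformed to log2(RPKM + 1) and fitted in 1 model of the 4 groups with limma 3.58.1 (trended, robust variance; R 4.3.3). Counts were tested with edgeR 4.0.16 (TMM, its count filter, robust quasi-likelihood); CPM uses the scaled library sizes. P-values were two-sided and Benjamini-Hochberg adjusted over all genes tested. The members and gene lists were chosen with earlier results of these data known. The 10 members are all named; of each other list, up to 4 genes by the smallest p in Ezh2 KO against CTRL are named, with others named after their values were seen, and 3 genes most like the highest and the lowest called member. The scripts were tested on simulated data. Alternatives included DESeq2 1.42.0, scaling, filters, pseudocount 0.1 and leaving out each library; those for members under 1 RPKM were chosen after seeing the data.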

Additional observations from a re-analysis of the deposited data

Results flagged for a closer look

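For Dlk1, limma without a filter called a difference between the Setd2 backgrounds in the change with Ezh2 loss, and edgeR did not. Its RPKM was 1.77 and 2.44 in Setd2 Ezh2 KO, 0.0448 and 0.0262 in Ezh2 KO, 0 and 0.0116 in Setd2 KO and 0 and 0.00682 in CTRL, and the interaction was 1.57 on the log2(RPKM + 1) scale (limma without a filter, adjusted p = 0.00601). Of that result's alternatives, edgeR on the recovered reads did not call it (adjusted p = 0.423), and the lowest adjusted p was 0.00146. In its 9 further settings edgeR did not call it either. The interaction on the read scale rests on a ratio against CTRL and Setd2 KO libraries of 0 to 2 reads. On the log2(RPKM + 1) scale the change of Dlk1 in Ezh2 KO against CTRL was 0.05, beside a ratio of depth-scaled reads of 10.6.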

How the results depend on the processing

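Under the alternatives run, Grb10, Sgce and Plagl1 kept their rise and Nnat its fall, with their calls, in both comparisons of Ezh2 loss wherever the filter left them in. The number of members called moved with the filter and tool: 2 in Ezh2 KO against CTRL became 5 with no filter, 0 at a mean of at least 5 RPKM and 6 by edgeR, and 2 in Setd2 Ezh2 KO against Setd2 KO became 7, 0 and 8. For Setd2 Ezh2 KO against Ezh2 KO, 0 became 1 after quantile normalization, a lower call of Grb10. It became 1, a higher call, with only the groups compared and by edgeR (Dlk1 in edgeR), and 3 with no filter. In the interaction, 0 became 1 with no filter.

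Of all genes, 121 were called in Setd2 KO against CTRL, 56 after quantile normalization, 67 with no filter, 62 at 5 RPKM, 42 with only those groups and 24 to 128 leaving out a library. For Setd2 Ezh2 KO against Ezh2 KO, 736 became 465 at 5 RPKM, 421 with only those groups and 342 to 810 leaving out a library, and in the interaction 294 became 146 and 143 to 276. Leaving out a library gave 4772 to 6735 genes in Ezh2 KO against CTRL and 4670 to 6232 in Setd2 Ezh2 KO against Setd2 KO. In K735R against wild-type Ezh2, 1 gene became 285 by DESeq2, 2 by limma and 0 to 1595 leaving out a library.

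Library numbers are not stated to pair samples, and deviations of same-numbered libraries correlated at 0.933 between the Ezh2-deleted groups and at 0.105 to 0.358 between the others. With the replicate block, 231 genes were called in Setd2 KO against CTRL, 469 in the interaction and 4 in K735R against wild-type Ezh2, and 1 member, Grb10, in the filtered fit of Setd2 Ezh2 KO against Ezh2 KO. In the fit without a filter the block also gave calls of Ndn in that comparison (adjusted p = 0.0473) and in the interaction (0.031).

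The sign of some uncalled log2 changes turned, and the cause was not tested: after quantile normalization Peg3 was −0.0039 in Ezh2 KO against CTRL, Mest −0.0069 in Setd2 Ezh2 KO against Setd2 KO and Igf2r 0.0476 in the interaction, where edgeR gave Igf2 −0.52. Leaving out 1 library at a time also turned signs. In Ezh2 KO against CTRL they ran from −0.077 to 0.035 for Igf2r. For Setd2 Ezh2 KO against Setd2 KO they ran from −0.14 to 0.092 for Igf2r, −0.18 to 0.61 for Mest and −1.18 to 1.52 for Mest by edgeR. In Setd2 KO against CTRL they ran from −0.035 to 0.18 for Grb10, −0.0049 to 0.012 for Dlk1, −0.029 to 0.10 for Mest, −0.16 to 0.022 for Plagl1, −2.82 to 3.59 for Dlk1 by edgeR, −0.10 to 0.53 for Mest by edgeR and −1.51 to 0.39 for Plagl1 by edgeR. For Setd2 Ezh2 KO against Ezh2 KO they ran from −0.16 to 0.065 for Plagl1, −0.0034 to 0.083 for Peg3, −2.88 to 0.0802 for Mest by edgeR, −0.26 to 0.15 for Plagl1 by edgeR and −0.046 to 1.38 for Peg3 by edgeR. In the interaction they ran from −0.12 to 0.11 for Igf2r, −0.16 to 0.036 for Nnat, −0.096 to 0.13 for Plagl1, −3.37 to 0.36 for Igf2 by edgeR and −0.48 to 1.42 for Plagl1 by edgeR. In K735R against wild-type Ezh2 they ran from −0.092 to 0.053 for Igf2r and −0.047 to 0.60 for Nnat. Members under 1 RPKM rest on few reads in Setd2 KO and CTRL, which limits their ratios.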

Other observations

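Outside the 10 members, the neighbouring imprinted genes Snrpn and Snurf, which share a transcript, were read in library 1 of each Ezh2-deleted group. Snrpn had 2.59 and 0 RPKM in Setd2 Ezh2 KO and 4.32 and 0 in Ezh2 KO, and was at 0 in Setd2 KO and CTRL. Snurf had 3.12 and 0.02 RPKM in Setd2 Ezh2 KO, 5.22 and 0 in Ezh2 KO, 0 and 0 in Setd2 KO and 0.0167 and 0.0167 in CTRL. Ube3a, an E3 ubiquitin ligase gene of the same imprinted domain, had 13.1 and 7.39 RPKM in Setd2 Ezh2 KO, 13.5 and 6.99 in Ezh2 KO, 13.4 and 11.4 in Setd2 KO and 15.1 and 13.1 in CTRL. These genes were picked after their values were seen. Snurf and Ube3a were among the tested neighbours above, and limma called neither in Ezh2 KO against CTRL. The gap between libraries 1 and 2 was not tested.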
